A study of Mus musculus with 24 samples.

Results

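The 7 mouse genes of the NMDA receptor, Grin1, Grin2a, Grin2b, Grin2c, Grin2d, Grin3a and Grin3b, were examined for trimethylation of lysine 27 of histone H3 (H3K27me3) in cultured cerebellar granule neurons (CGNs). The members are every gene of the family, chosen by name from 21938 protein-coding genes, and each is described by its promoter window, the stretch that reaches 3 kb to each side of the annotated 5′ end. The data were peak lists from CUT&RUN, an assay in which an antibody guides a nuclease to the chromatin that carries a mark, in 24 libraries of 3 replicates for each of 8 groups. In the time course, granule neuron progenitors of CD1-IGS pups were plated and harvested on day in vitro (DIV) 1, DIV3, DIV5 or DIV7 with no drug. In the drug experiments, cultures were harvested on DIV5 after 5 µM GSK-126, an inhibitor of the H3K27 methyltransferase EZH2, or after 1 µM GSK-J4, an inhibitor of H3K27 demethylases, and each drug had its own DMSO set. AraC, which removes dividing cells, was given at 1 µM on DIV2, after the DIV1 harvest. Replicates were cultures from pooled cerebella, so animals cannot be separated, and the lists hold no gene expression.

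NMDA receptors are glutamate-gated cation channels that need glycine or D-serine as a co-agonist. Grin1 encodes the obligatory subunit GluN1, the Grin2 genes encode the glutamate-binding subunits GluN2A to GluN2D that set the kinetics of the channel, and the Grin3 genes encode the glycine-binding subunits GluN3A and GluN3B. Maturing granule neurons are known for exchanging GluN2B for GluN2C, with GluN2A appearing as synapses form. H3K27me3 is laid down by Polycomb repressive complex 2, often over CpG-rich promoters, and marks genes that are kept silent.

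The lists differed in size, and that bears on each value below. A library held 4740 to 22832 peaks that covered 1.07 to 6.57 Mb. The covered length was 1.19 to 2.25 Mb in DIV7 libraries and 1.33 to 5.18 Mb in DIV1 libraries. It was 1.07 to 2 Mb with GSK-126 and 3.29 to 4.23 Mb in its DMSO set, and 1.4 to 3.11 Mb with GSK-J4 and 1.7 to 2.08 Mb in its DMSO set. The GSK-126 library of replicate 3 stood apart, with peaks in 3285 promoters against 2034 and 1348 in the other GSK-126 libraries. Comparisons were therefore fitted both on lists cut to an equal summed length, the strongest peaks first, and on all deposited peaks. Most member promoters kept too few peaks on the lists of equal length to be tested there, and their changes are given from all deposited peaks alone. What a value measures is the percent of the 6 kb window that a library's peaks cover, and a change is a difference in those percentage points.

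Of 168 pairs of a member and a library, 46 had a peak in the promoter window. Grin2c had one in 19 of 24 libraries, Grin3a and Grin3b in 9 each, Grin2a in 5 and Grin2b in 4, whereas Grin1 and Grin2d had none. Among all promoters, 62% had no peak in any library, 9.45% had one in at least 12 libraries and 1.3% in all 24, so Grin2c lay among the 5.24% of promoters with a peak in 19 or more. The median member had a peak in 5 libraries, and the median of all promoters was 0. The member peaks were of mixed strength. The deposited −log10 q reached 2, a false discovery rate of 0.01, in 8 of the 55 member peaks, and over all 247296 deposited peaks 14.5% did. By fold enrichment 29 of the 55 were below the median of their library, among them 22 of 23 of Grin2c, 1 of 5 of Grin2b and 0 of 10 of Grin3b.

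**Figure D1:**
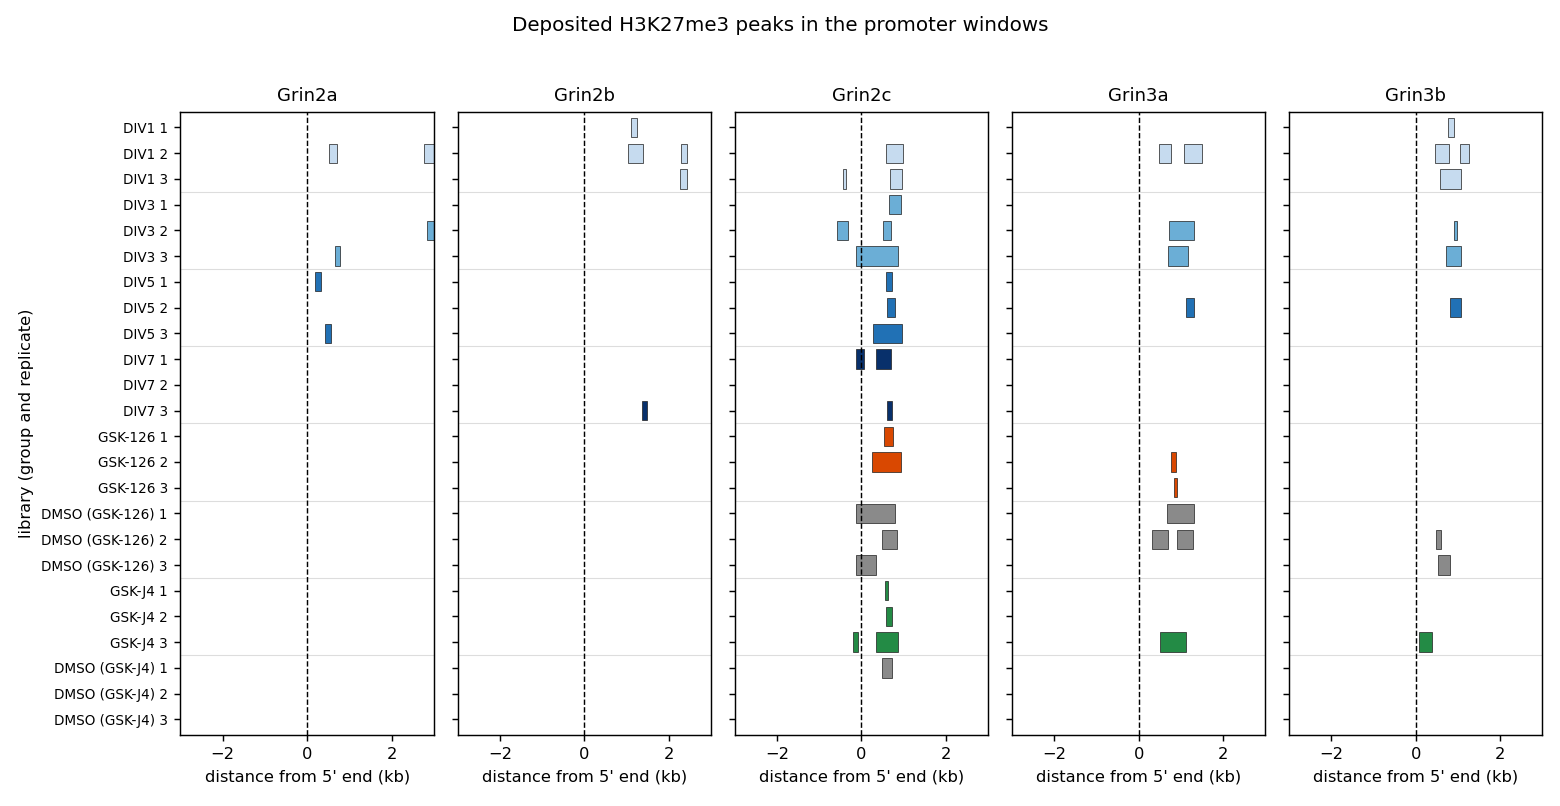
Deposited peaks in the windows of the 5 members that had any, by library (rows) and distance from the annotated 5′ end in kb (x axis, positive in the direction of transcription; the dashed line is the 5′ end). Grin2c bars recur at one place, within the first kb downstream, in 19 of 24 libraries, and Grin2b bars are found in the 3 DIV1 libraries and in 1 DIV7 library.

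The member peaks lay mostly downstream of the 5′ end. The centre was downstream for 51 of 55 member peaks (92.7%), and for all 6 peaks of Grin2a, 5 of Grin2b, 11 of Grin3a and 10 of Grin3b. Over all promoter windows 69.2% of peak centres were downstream. The 4 exceptions were peaks of Grin2c. In Grin3a, 9 of 11 peaks overlapped a stretch of 315 bases, whose most often covered base was covered in 7 of the 9 libraries with a peak, 844 to 1158 bases downstream of the 5′ end (chr4:49844586-49844900, GRCm38), which lies within coding sequence of exon 1 and was 69.5% G and C.

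Grin2c, which encodes the subunit of mature granule neurons, is on the minus strand of chromosome 11 (gene chr11:115249169-115267243). The recurrent promoter stretch spanned 524 bases, 347 to 870 bases downstream of the 5′ end (chr11:115266373-115266896). It held 172 bases of exon 2 and 352 intronic bases, most of them at the end of the first intron. A peak overlapped it in 19 libraries, and its most often covered base was covered in 17. The peaks there had a fold enrichment over background of 2.6 to 4.07 with a median of 3.25, against library medians of 3.61 to 4.17, and 18 of the 19 were below the median of their own library. Of its 23 promoter peaks, 17 had their centre in this stretch. A CpG-rich intronic part of the stretch, of 300 bases, is shown. Each of its bases was covered in 6 to 16 libraries, and not all peaks of the stretch reached it. The 250 bases before the RefSeq start are shown for comparison with the other members. CpG dinucleotides are in capitals, on the transcribed strand.
Grin2c first intron, chr11:115266592-115266891 (−): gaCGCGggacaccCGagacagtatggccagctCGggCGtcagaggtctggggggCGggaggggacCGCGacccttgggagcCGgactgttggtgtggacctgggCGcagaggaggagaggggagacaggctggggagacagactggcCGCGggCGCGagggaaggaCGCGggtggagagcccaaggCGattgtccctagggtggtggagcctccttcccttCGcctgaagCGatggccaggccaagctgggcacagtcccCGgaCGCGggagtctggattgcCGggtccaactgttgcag
Grin2c upstream, chr11:115267244-115267493 (−): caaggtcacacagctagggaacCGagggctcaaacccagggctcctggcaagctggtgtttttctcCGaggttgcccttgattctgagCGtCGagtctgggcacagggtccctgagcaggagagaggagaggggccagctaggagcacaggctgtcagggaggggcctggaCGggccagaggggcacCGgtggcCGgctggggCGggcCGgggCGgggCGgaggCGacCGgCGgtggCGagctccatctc

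The intronic sequence held 23 CpGs in 300 bases, a number reached by 21.5% of RefSeq promoters of that length, where the median was 7. The upstream sequence held 15 in 250 bases, which 27.3% of promoters reached over the same bases (median 6). The whole 6 kb window of Grin2c was 59.4% G and C, more than 99.7% of all windows. The median was 49.8% for promoters with a peak in 12 or more libraries and 45.5% for those with none. By the ratio of observed to expected CpGs the window was less extreme, at 0.441, above 77.2% of windows. Over 2 kb the ratio was 0.558, above 60.2%.

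Day by day, Grin2c was covered in each stage of the culture and its libraries overlapped throughout. Its window was covered by all deposited peaks to 0, 6.55 and 6.05% on DIV1, to 4.8, 7.6 and 16.5% on DIV3, to 2.45, 3.05 and 11.6% on DIV5, and to 8.85, 0 and 2.18% on DIV7. A library with no peak was found on both the earliest and the latest day, and both were short lists, of 1.33 and 1.19 Mb. The mean was 3.68 ± 4.61% on DIV7 and 4.2 ± 3.64% on DIV1 (SD, n = 3 each). Grin2c was the single member with enough covered libraries (at least 3 of 12) for the test on lists of equal length, where DIV7 exceeded DIV1 by 1.89 points with a 95% interval from −2.37 to 6.14 (limma, adjusted p = 0.727). With all deposited peaks the difference had the other sign, −0.52 points with an interval from −8.97 to 7.92 (limma, adjusted p = 0.955). Either interval allows a difference larger than the mean coverage itself, so a change of that size was not detectable with these lists.

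**Figure D2:**
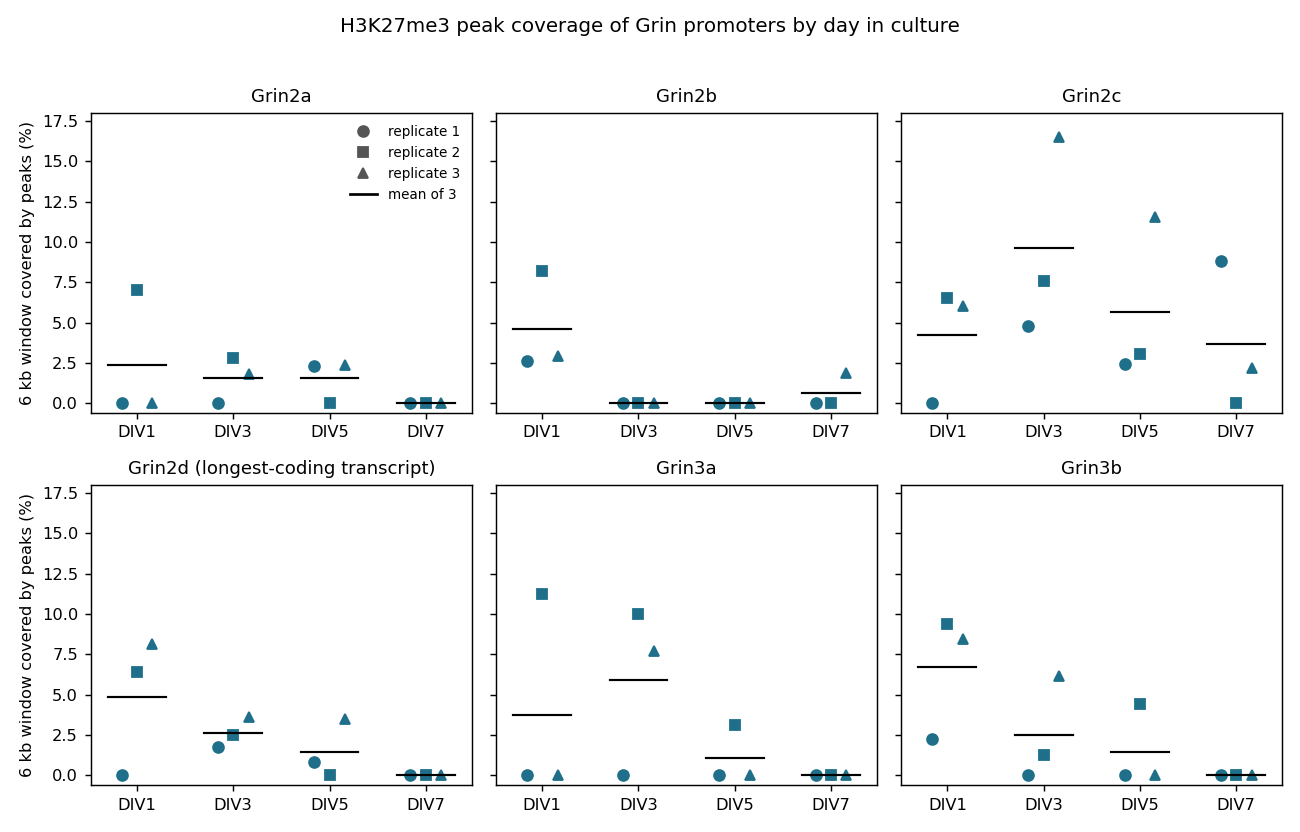
Percent of the 6 kb window covered by all deposited peaks (y axis) by day in vitro (x axis) for 6 members. Points are libraries, with a symbol for each replicate number, and bars are means of 3; Grin2d is drawn for the 5′ end of its longest-coding transcript. Grin2b is above 0 in the 3 DIV1 libraries and in 1 later library, and Grin2a, Grin2d, Grin3a and Grin3b are at 0 in the 3 DIV7 libraries.

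Grin2b, which encodes the subunit of immature granule neurons, carried promoter peaks at the first time point and nearly nowhere else. Its window (gene chr6:135713233-136173511, minus strand) was covered to 2.6, 8.21 and 2.92% on DIV1, to 0% in the 3 DIV3 and the 3 DIV5 libraries, and to 0, 0 and 1.9% on DIV7. It had no peak in any of the 12 drug and DMSO libraries, which were harvested on DIV5. The DIV1 libraries were thus above each DIV3, DIV5 and DIV7 library. Every DIV3 library was below every DIV1 library at 2.22% of the 5229 promoters with a peak in any of those 6 libraries, every DIV5 library at 5.3% of 5174, and every DIV7 library at 13% of 4809. Of the 1376 promoters with a peak in 3 of 3 DIV1 libraries, 36 (2.62%) had none in the 6 libraries of DIV3 and DIV5.

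The Grin2b peaks were short, at most 340 bases, and those of DIV1 lay at 2 places. The DIV1 libraries of replicates 1 and 2 had one between 1041 and 1380 bases downstream of the 5′ end, and those of replicates 2 and 3 had one between 2269 and 2443 bases. The peaks of this second place were the strongest, with a −log10 q of 2.25 and 2.47 and a fold enrichment of 4.4 and 4.74, above 90.8 and 95.1% of the peaks of their library. The peak of replicate 1 was just above the caller's threshold, with −log10 q of 1.03 against a minimum of 1. The DIV3 libraries without a Grin2b peak included the longest list of the series, 6.57 Mb, and the shortest of the time course, 1.11 Mb. Whether list length bears on the absence of a peak was not tested. Grin2b kept a peak in 2 libraries, both of DIV1, on lists of equal length and was not tested. Its mean over all deposited peaks was 0.63 ± 1.1% on DIV7 and 4.58 ± 3.16% on DIV1, a difference of −3.94 points with an interval from −7.57 to −0.32 that did not pass over all promoters (limma, unadjusted p = 0.0357, adjusted p = 0.223). Without the DIV1 library of replicate 2 it was −2.12 points (adjusted p = 0.694). DIV3 minus DIV1 was −4.58 points, with an interval from −8.2 to −0.95 (limma, adjusted p = 0.576).

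Grin2a, whose subunit appears as synapses mature, had scattered peaks before DIV7 (gene chr16:9567898-9995560, minus strand). Its window was covered to 0, 7.03 and 0% on DIV1, to 0, 2.82 and 1.8% on DIV3, to 2.33, 0 and 2.37% on DIV5 and to 0% in the 3 DIV7 libraries. The 5 libraries with a peak had lists of 3.4 to 6.57 Mb, longer than each DIV7 list. The 19 libraries without one had lists of 1.07 to 4.23 Mb, so the 2 ranges overlap. DIV7 minus DIV1 was −2.34 points with all deposited peaks and had an interval from −6.72 to 2.03 (limma, adjusted p = 0.501), and no drug or DMSO library had a peak.

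Grin3a, whose subunit is high in the early postnatal brain, was covered in 4 of 12 time course libraries (gene chr4:49661611-49845744, minus strand). The values were 0, 11.2 and 0% on DIV1, 0, 10.0 and 7.71% on DIV3, 0, 3.13 and 0% on DIV5, and 0% in the 3 DIV7 libraries. DIV7 minus DIV1 was −3.75 points with an interval from −11.1 to 3.63 (limma, all deposited peaks, adjusted p = 0.52). Its peaks were stronger for their library than those of Grin2c, with a fold enrichment of 3.57 to 4.92 and 2 of 11 below the median of their library.

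Grin3b, the other glycine-binding subunit gene, is short and on the plus strand (chr10:79970715-79977190). Its peaks lay between 79 and 1257 bases downstream of the 5′ end. The window was covered to 2.27, 9.38 and 8.46% on DIV1, to 0, 1.25 and 6.18% on DIV3, to 0, 4.4 and 0% on DIV5, and to 0% in the 3 DIV7 libraries. Each DIV1 library was above each DIV7 library, a pattern that, as given above, 13% of the promoters showed. The mean was 0 ± 0% on DIV7 and 6.7 ± 3.87% on DIV1 (SD, n = 3 each), and the difference of −6.7 points had an interval from −11.9 to −1.52 with all deposited peaks (limma, unadjusted p = 0.0164, adjusted p = 0.173). Whether it passed depended on 1 library, the DIV1 library of replicate 1, whose list was the shortest of that day. Without that library the difference was −8.92 points (limma, adjusted p = 0.0244). In that fit 680 of 3495 promoters passed, 673 of them lower on DIV7, against 40 of 3585 with all libraries kept. Grin3b kept a peak in 2 libraries on lists of equal length, DIV1 replicate 1 and a DMSO library of the GSK-126 experiment, and was not tested. The 250 bases before its RefSeq start held 2 CpGs, a number that 81.2% of promoters reached, and are shown as the contrast to Grin2c.
Grin3b upstream, chr10:79970474-79970723 (+): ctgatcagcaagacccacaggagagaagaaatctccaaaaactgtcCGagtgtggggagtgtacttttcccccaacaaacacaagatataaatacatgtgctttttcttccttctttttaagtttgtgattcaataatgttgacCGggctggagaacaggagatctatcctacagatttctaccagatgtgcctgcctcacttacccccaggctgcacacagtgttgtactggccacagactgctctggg

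Over the 5 members tested with all deposited peaks, 5 of 5 had a lower mean on DIV7 than on DIV1, with a median change of −3.75 points, and 0 passed the test. The median over all 3585 promoters tested was −3.07 points, close to that of the members, with DIV7 lists that were shorter on the whole. On lists of equal length 18 of 1795 promoters passed (1%), 8 higher and 10 lower on DIV7, and with all deposited peaks 40 of 3585 (1.12%). On lists of equal length 6 passed between DIV3 and DIV1 (0.334%), 0 between DIV5 and DIV3 (0%, limma, where 66 positive and 48 negative changes had an unadjusted p under 0.05) and 6 between DIV7 and DIV5 (0.334%), and Grin2c was in none of these sets. For the trend over days 1 passed on lists of equal length (0.0557%) and 36 with all deposited peaks (1%). The steepest member trend was that of Grin3b, −1.06 points a day with an interval from −1.82 to −0.29 (limma, all deposited peaks, adjusted p = 0.121), and it was at adjusted p = 0.0309 without the same DIV1 library.

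**Figure D3:**
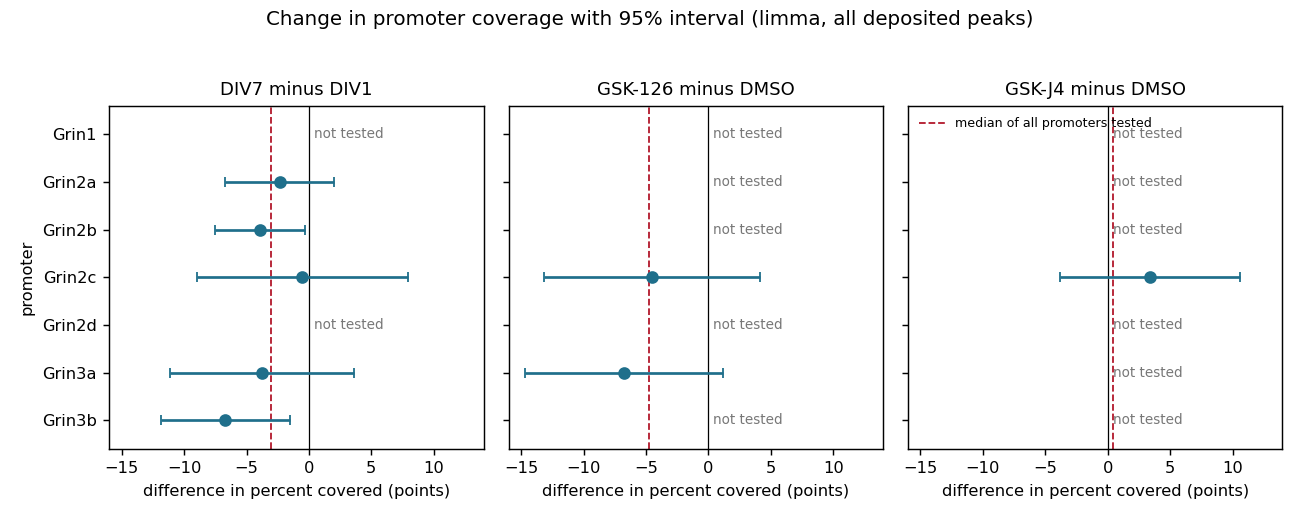
Change in percent covered (x axis, points) of each member promoter (rows) for DIV7 minus DIV1, GSK-126 minus DMSO and GSK-J4 minus DMSO with all deposited peaks. Points are limma estimates, bars 95% intervals, and the red dashed line is the median of all promoters tested, −3.07 points for DIV7 minus DIV1; members covered in under 3 libraries are marked as not tested.

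Grin1, the subunit gene that each receptor needs, had no promoter peak in any of 24 libraries (gene chr2:25291181-25319187, minus strand), like 62% of all promoters. Its 250 bases before the RefSeq start held 27 CpGs, a number that 8.56% of promoters reached and more than the matching bases of Grin2c or Grin3b. They are shown as the upstream sequence of a member without a promoter peak. Over the 2 kb around the 5′ end the order was the other way, with 92 CpGs in Grin1 and 111 in Grin2c, and over the 6 kb window it was 122 and 232.
Grin1 upstream, chr2:25319188-25319437 (−): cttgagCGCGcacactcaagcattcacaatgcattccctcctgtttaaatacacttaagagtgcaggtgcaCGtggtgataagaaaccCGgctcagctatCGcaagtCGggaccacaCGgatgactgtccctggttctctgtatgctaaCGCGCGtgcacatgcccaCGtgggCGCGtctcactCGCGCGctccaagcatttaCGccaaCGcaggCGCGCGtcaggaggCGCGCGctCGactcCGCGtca

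Most peaks near Grin1, 13 of 19, were at its other end, and the remaining 6 lay between 5610 and 8128 bases downstream of the 5′ end, inside the gene, in 5 libraries. In 3 of these 5 libraries they were the only Grin1 peaks. In 10 libraries a peak lay 26771 to 29255 bases downstream of the 5′ end, across the 3′ end of the gene and the start of Lrrc26, a neighbour on the opposite strand whose 5′ end is at chr2:25289915. Those at the 3′ end were present in 2 of 3 DIV7 libraries and 3 of 3 DIV1 libraries, in 0 of 3 GSK-126 libraries and 1 of 3 libraries of its DMSO set, and in 0 of 3 GSK-J4 libraries and 1 of 3 of its DMSO set. The gene body of Grin1, that is the gene outside the promoter window, was covered to 0, 0.44 and 0% on DIV7 and to 0, 5.52 and 3.71% on DIV1. The difference of −2.93 points did not pass (limma, all deposited peaks, adjusted p = 0.368).

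Grin2d is a case where the annotation decides what the promoter is. The 5′ end of the gene record (chr7:45831883-45878378, minus strand) belongs to an incomplete transcript, and its window had no peak in 24 libraries. The transcript with the longest coding sequence starts 7949 bases further downstream, and the window around that 5′ end had a peak in 10 libraries. There, coverage was 0, 6.42 and 8.15% on DIV1, 1.77, 2.48 and 3.58% on DIV3, 0.85, 0 and 3.47% on DIV5 and 0% in the 3 DIV7 libraries. The difference of −4.86 points between DIV7 and DIV1 had an interval from −9.39 to −0.32 (limma, all deposited peaks, adjusted p = 0.227). The 5′ end of Kdelr1, which encodes a receptor that returns proteins to the endoplasmic reticulum, lies 5606 bases from the 5′ end of the Grin2d record, so its window overlaps both. It is on the opposite strand and also had a peak in 10 libraries, and peaks between the 5′ ends cannot be assigned to one of the genes.

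The most regular H3K27me3 peak of the family was inside Grin2d. A stretch of 946 bases near the 3′ end, 43323 to 44268 bases from the 5′ end of the gene record (chr7:45834110-45835055), was overlapped by a peak in 24 of 24 libraries, and its most often covered base was covered in 23. It contains 421 coding bases of exons 11 and 12 of a 13-exon transcript and 525 intronic bases. A peak in all 24 libraries was found in the bodies of 166 of 19551 genes (0.849%), counted anywhere in the body. Over the genome 234 regions, joined over 1 kb, held a base covered in all 24 libraries. Of these, 0 lay in or within 3 kb of a member. The 5′ end of another protein-coding gene nearest to the stretch was that of Grwd1, 3166 bases away, whose window had a peak in 1 library. The label below names the exons of the whole stretch, and the 300 bases shown include intron. They are the sequence most often covered, in 21 to 23 libraries at each base, with CpGs in capitals.
Grin2d exons 11 and 12, chr7:45834355-45834654 (−): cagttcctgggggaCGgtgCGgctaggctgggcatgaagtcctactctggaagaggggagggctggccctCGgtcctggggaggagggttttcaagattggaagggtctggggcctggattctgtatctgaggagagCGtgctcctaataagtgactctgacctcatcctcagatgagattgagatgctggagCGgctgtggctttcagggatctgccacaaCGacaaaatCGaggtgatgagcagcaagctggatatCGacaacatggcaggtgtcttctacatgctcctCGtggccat

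It held 9 CpGs in 300 bases, a number that 45.8% of promoters reached. The stretch was 56.7% G and C, against 52% for the whole gene. The peaks there were regular rather than strong, with a fold enrichment of 2.64 to 3.68 and 25 of 25 below the median of their library. Peaks covered 330, 614 and 719 bases of it on DIV7 and 230, 946 and 946 on DIV1. Under GSK-126 they covered 745, 589 and 647 bases, against 735, 835 and 746 in its DMSO set, and under GSK-J4 500, 796 and 603 bases, against 896, 399 and 678 in its DMSO set. In each of these comparisons the groups overlapped. Of 1095 gene bodies with a peak in 3 of 3 DMSO libraries of the GSK-126 experiment, 405 (37%) had one in 3 of 3 GSK-126 libraries, and Grin2d was one of them.

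Grin2c had a second recurrent stretch of the same kind, 16000 to 16705 bases from its 5′ end and 1369 bases from the 3′ end of the gene (chr11:115250538-115251243). It was overlapped by a peak in 18 libraries and contains 403 coding bases of exons 14 and 15 and 303 intronic bases. Its peaks were likewise weak, with 19 of 19 below the median of their library. The 300 bases shown are a part of the stretch and include intron. The label names the exons of the whole stretch.
Grin2c exons 14 and 15, chr11:115250538-115250837 (−): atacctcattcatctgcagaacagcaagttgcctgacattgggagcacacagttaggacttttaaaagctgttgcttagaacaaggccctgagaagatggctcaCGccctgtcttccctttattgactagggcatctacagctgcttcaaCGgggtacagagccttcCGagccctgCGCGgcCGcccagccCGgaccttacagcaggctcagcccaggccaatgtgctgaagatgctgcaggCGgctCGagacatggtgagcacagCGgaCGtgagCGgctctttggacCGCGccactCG

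Here 15 CpGs fell in 300 bases. A peak was present in 2 of 3 DIV7 and 2 of 3 DIV1 libraries, in 1 of 3 GSK-126 libraries and 3 of 3 libraries of its DMSO set, and in 2 of 3 GSK-J4 libraries and 2 of 3 of its DMSO set.

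**Figure D4:**
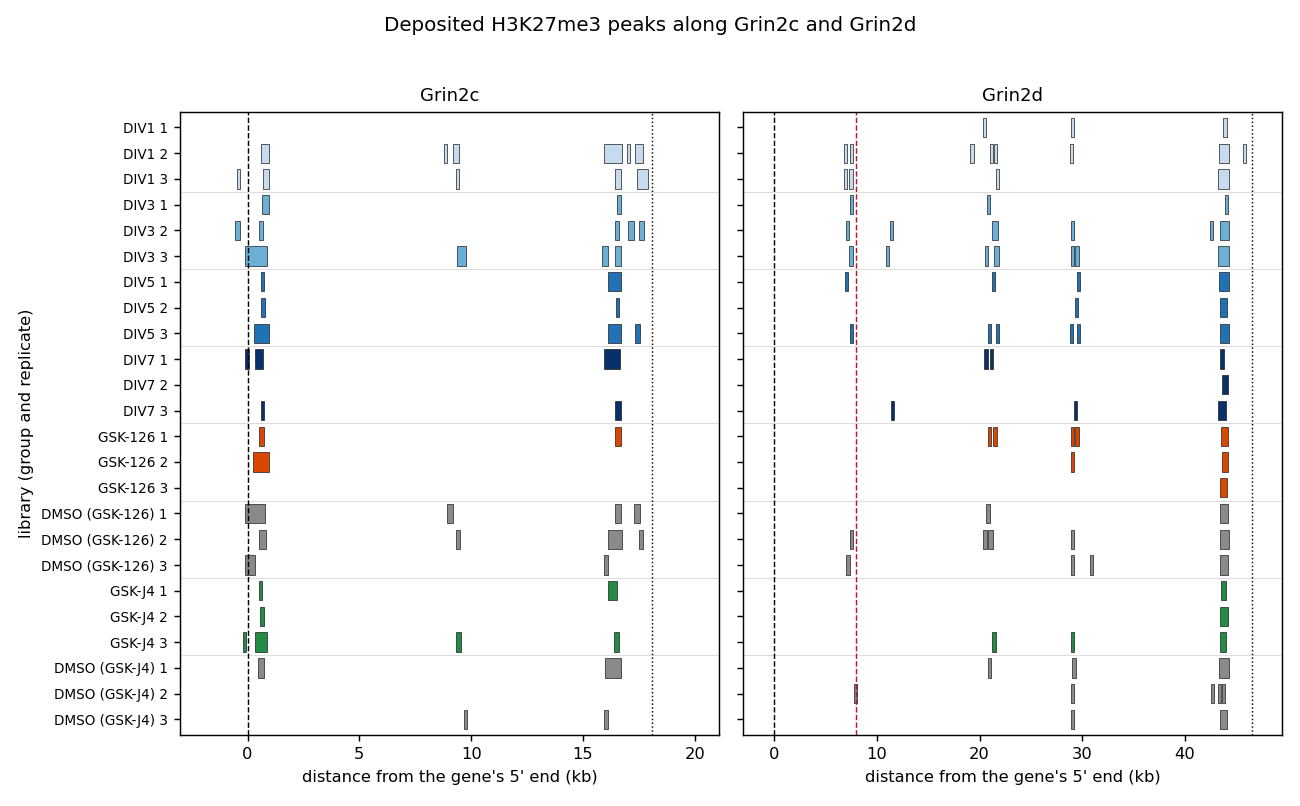
Deposited peaks along Grin2c and Grin2d by library (rows) and distance from the 5′ end of the gene record in kb (x axis; dashed black line, 5′ end; dotted line, 3′ end; dashed red line, 5′ end of the longest-coding Grin2d transcript). Each of the 24 rows has a bar near the 3′ end of Grin2d, and 18 rows have one near the 3′ end of Grin2c.

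Gene-body coverage could be tested on lists of equal length for Grin2c and Grin2d, and neither passed in any comparison (limma; 2 of 16 fits had an unadjusted p under 0.05). DIV7 minus DIV1 was 2.2 points in the Grin2c body, with an interval from −0.1 to 4.5 (adjusted p = 0.453), and had the other sign with all deposited peaks, −3.53 points (interval −9.86 to 2.8, adjusted p = 0.668). In the Grin2d body it was −0.11 points (interval −1.25 to 1.03, adjusted p = 0.962), and −1.37 with all deposited peaks (adjusted p = 0.734). GSK-126 minus DMSO was −0.48 points in the Grin2c body (interval −2.4 to 1.45, adjusted p = 0.931), and −4 with all deposited peaks (interval −8.33 to 0.33, adjusted p = 0.237). In the Grin2d body it was 0.95 points (interval −0.61 to 2.52, adjusted p = 0.676) and turned to −0.97 with all deposited peaks (adjusted p = 0.466). Over all gene bodies 10 of 1179 passed between DIV7 and DIV1 (0.848%), 7 of 698 under GSK-126 (1%; with all deposited peaks 5.57%) and 3 of 880 under GSK-J4 (0.341%).

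The drug comparisons ask whether loss or retention of H3K27 methylation was seen at the family by DIV5. Under GSK-126 the Grin2c window was covered to 3.8, 11.4 and 0%, against 15.1, 5.68 and 8% in its DMSO set. The library at 11.4% had the shortest list of the 24, 1.07 Mb, and that at 0% was replicate 3, the library that stood apart. The mean was 5.07 ± 5.81% with GSK-126 and 9.59 ± 4.9% in DMSO (SD, n = 3 each). The difference was −4.52 points with all deposited peaks, with an interval from −13.2 to 4.13 (limma, adjusted p = 0.386), and the median of all 2385 promoters tested was −4.77 points. With 1 library left out it ran from −7.69 points without GSK-126 replicate 2 (limma, adjusted p = 0.172) to −1.77 without DMSO replicate 1 (adjusted p = 0.769), and it was −1.98 points without the GSK-126 library of replicate 3 (adjusted p = 0.746). On lists of equal length the order of the means turned round, with 0, 11.4 and 0% under GSK-126 and 0% in the 3 DMSO libraries, too few covered libraries for a test. These lists were cut to 1.07 Mb, the length of the library at 11.4%, which therefore stayed whole. The DMSO lists, of 3.29 to 4.23 Mb, lost their Grin2c promoter peaks in the cut. Lists of equal length also cannot show a loss that all sites share, so no change is read from this order.

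Grin3a was covered to 0, 1.98 and 1.02% with GSK-126, against 10.5, 12.7 and 0% in DMSO. Its change of −6.72 points had an interval from −14.7 to 1.2 (limma, all deposited peaks, adjusted p = 0.172). Here too 1 library decided the call, since without the DMSO library of replicate 3 the change was −10.6 points (adjusted p = 0.0195). For Grin3a too the order turned round on lists of equal length, because the DMSO libraries lost their Grin3a peaks and the GSK-126 libraries kept them, at 1.98 and 1.02%. Grin3b was covered to 0% in the 3 GSK-126 libraries, against 0, 2.07 and 4.87% in DMSO, and the Grin2d window at the longest-coding transcript to 0% in the 3 GSK-126 libraries, against 0, 3.28 and 2.27% in DMSO. Neither met the minimum for a test. Under GSK-126, 64 of 939 promoters passed on lists of equal length (6.82%), 23 higher and 41 lower, and none of the 7 members was covered in the 3 libraries needed to be among those tested. With all deposited peaks 641 of 2385 passed (26.9%), and neither of the 2 members tested did.

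**Figure D5:**
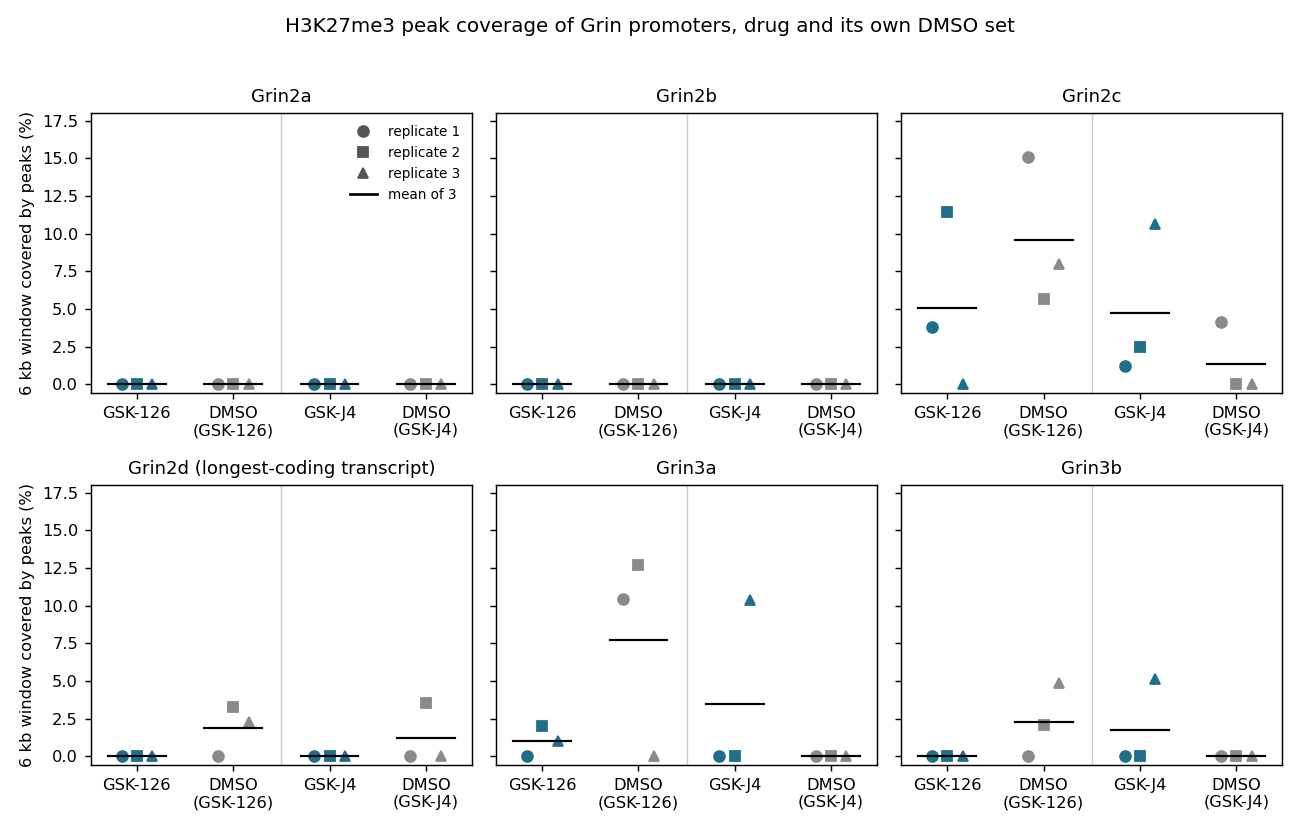
Percent of the 6 kb window covered by all deposited peaks (y axis) in drug libraries and in the DMSO set of that drug (x axis) for 6 members. Points are libraries with a symbol for each replicate number, and bars are means of 3; Grin2d is drawn for the 5′ end of its longest-coding transcript. Grin2a and Grin2b are at 0 in all 12 libraries, and the Grin2c groups overlap for both drugs.

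Under GSK-J4, Grin2c was covered to 1.18, 2.45 and 10.7%, against 4.12, 0 and 0% in its DMSO set. The mean was 4.77 ± 5.15% with GSK-J4 and 1.37 ± 2.38% in DMSO (SD, n = 3 each). The difference was −0.16 points on lists of equal length, with an interval from −5.54 to 5.22 (limma, adjusted p = 0.995), and 3.39 points with all deposited peaks, with an interval from −3.85 to 10.6 (adjusted p = 0.999). The high GSK-J4 value belonged to replicate 3, whose list of 3.11 Mb was the longest of that experiment, and the same library held the Grin3a (10.4%) and Grin3b (5.15%) peaks of the GSK-J4 group, where the other 5 libraries of the experiment were at 0. No promoter passed under GSK-J4 on lists of equal length (0 of 1524, 0%, limma, 73 at an unadjusted p under 0.05) or with all deposited peaks (0 of 2034, 0%, 31 at an unadjusted p under 0.05). The response to GSK-126 minus that to GSK-J4 differed for 23 of 1766 promoters on lists of equal length (1.3%), and for Grin2c this difference did not pass. It was 2.59 points on lists of equal length, with an interval from −5.68 to 10.9 (limma, adjusted p = 0.857), and had the other sign with all deposited peaks, −7.91 points with an interval from −19 to 3.17 (adjusted p = 0.364).

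The other genes of glutamate signalling were counted in the same way. Over all promoters 38% had a peak in at least 1 library and 9.45% in 12 or more. Of 11 genes of the AMPA, kainate and delta receptors, 7 had a promoter peak in at least 1 library and 1, Gria1, in 12 or more (13 libraries). Of 28 genes of receptor scaffolds and signalling, 19 and 2 did (Kalrn in 18 and Neto1 in 17 libraries), and of 7 genes that handle glycine and D-serine 4 and 2 did. On lists of equal length 5 of these 46 genes entered the test of DIV7 against DIV1, 0 that of GSK-126 and 4 that of GSK-J4 against DMSO, and 0 passed (limma; 1 had an unadjusted p under 0.05 in the comparison of days and 1 in that of GSK-J4). With all deposited peaks 16 entered the comparison of days and 0 passed, with 5 at an unadjusted p under 0.05, and the 4 tested genes of the AMPA, kainate and delta receptors had a median change of −3.58 points, beside −3.75 points for the 5 members. With all deposited peaks 9 entered the comparison of GSK-126 and DMSO and 2 fell, no larger a share than the 26.9% of all promoters that passed there. Neto1, which encodes an auxiliary protein of glutamate receptors, averaged 1.25 ± 1.5% with GSK-126 and 10.6 ± 4.29% in DMSO (SD, n = 3 each; limma, adjusted p = 0.0327), and Gldc, the decarboxylase of the glycine cleavage system, averaged 0.27 ± 0.46% with GSK-126 and 16.6 ± 1.61% in DMSO (SD, n = 3 each; limma, adjusted p = 0.00238). Neither was covered often enough on lists of equal length to be tested under GSK-126.

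The promoters whose coverage followed that of Grin2c most closely over the 24 libraries were those of Igfbp2 (Pearson r = 0.736), Slc24a4 (0.732), Sox2 (0.731), Cpm (0.726) and Bicc1 (0.723), among 1931 promoters with a peak in 12 or more libraries and a median r of 0.397. These libraries share the length of their lists, with which Grin2c itself had r = 0.59, and the values are a description. Promoters of cell markers were counted too, where 9.45% of all promoters had a peak in 12 or more libraries. None of 9 granule neuron markers had one in 12 or more. Gabra6, Cbln3, Pax6, Zic1 and Slc17a7 had none in any library, like 62% of all promoters. The other granule neuron markers had a peak in 5 libraries (Neurod1), 2 (Rbfox3) or 1 (Zic2 and Reln). The count in 12 or more was 3 of 4 precursor markers, 2 of 9 markers of glia, microglia and vessels and 1 of 6 of other cerebellar neurons. A peak shows the mark and not the expression, so these counts do not measure which cells were present.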

How the data were processed

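H3K27me3 CUT&RUN peak lists of 24 libraries were used. Per the labels and the methods, the authors trimmed paired reads with Trimmomatic 0.38, aligned them to mm10 with STAR 2.7.2b and called broad peaks per library with MACS2 2.1 at a false discovery rate of 0.1; the control is not given in the sources used here. The deposited lists give for each peak a score (not used), a fold (ratio of signal to local background) and a −log10 p and −log10 q made by the authors' peak caller. They hold no reads, so depth is unknown.

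Percent covered was computed for a 6 kb window around the 5′ end of 21938 protein-coding genes (GENCODE M21) and for the rest of each gene, on lists cut to 1.11 Mb (time course), 1.07 Mb (GSK-126) or 1.4 Mb (GSK-J4) by −log10 p, and on all peaks. Features covered in at least 3 libraries of an experiment were fitted with limma 3.58.1 (robust eBayes; R 4.3.3), with Benjamini-Hochberg adjustment over all features tested and a threshold of 0.05. Replicates were cultures from pooled cerebella, and p-values measure the spread between them. The fit was tested on simulated data. Sequences are from GRCm38.p6, the assembly of mm10, and from the RefSeq promoter table, which held 4 of the 7 members. Named are the 7 members, neighbours with overlapping windows and the 5 promoters most like Grin2c. For each list at most 4 genes that passed are named. Other named neighbours and list genes were chosen after their values were seen. Alternatives were another ranking, a stricter q, other windows and filters, a replicate block and leaving out each library. The members and lists were chosen with earlier results of these data known.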

Additional observations from a re-analysis of the deposited data

How the results depend on the processing

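No member promoter or gene body passed the test under the alternatives listed for the methods with all libraries kept. In 628 fits of a member over 58 settings and all comparisons, 71 had an unadjusted p under 0.05 and 3 passed after adjustment (limma), all with all deposited peaks and 1 library left out, settings that were added after seeing the data. Leaving out the DIV1 library of replicate 1 brought 1 member, Grin3b, past the threshold between DIV7 and DIV1 (limma, adjusted p = 0.0244) and in the trend (0.0309). Without that library 680 of 3495 promoters passed between DIV7 and DIV1. Leaving out the DMSO library of replicate 3 brought 1 member, Grin3a, past the threshold under GSK-126 (limma, adjusted p = 0.0195). Leaving out any other library gave 0. The sign of Grin2c depended on the list. Its promoter difference between DIV7 and DIV1 was 1.89 points on lists of equal length (0 to 2.83 with 1 library left out) and −0.52 with all deposited peaks (−3.11 to 1.32), also at the 5′ end of the longest-coding transcript and with the replicate block. Its GSK-J4 difference was −0.16 points (−0.85 to 0.44 with 1 library left out) and 3.39 (0.44 to 5.18), and its response to GSK-126 minus that to GSK-J4 was 2.59 points (1.99 to 4.5) and −7.91 (−11.1 to −4.96), again also with that 5′ end and that block. The gene-body difference between DIV7 and DIV1 was −3.53 points in Grin2c with all deposited peaks, and in Grin2d it ran from −0.69 to 0.203 with 1 library left out. Under GSK-126 the gene body of Grin2d was at −0.97 points with all deposited peaks. The cause of these reversals was not tested, and none of these values passed. Counting only overlaps of at least 100 bases left 43 of the 46 pairs with a peak.

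Counts over all promoters moved more. Between DIV7 and DIV1 18 passed, 5 when ranked by fold enrichment, 0 at −log10 q of 2 or more and 40 with all deposited peaks. With 1 library left out 0 to 33 passed on lists of equal length, and 3 to 680 with all deposited peaks. Under GSK-126 64 passed, 91 when ranked by fold enrichment, 20 at −log10 q of 2 or more and 641 with all deposited peaks. On lists of equal length 0 to 22 passed with 1 library left out. Same-numbered libraries shared little of their deviations. The correlation was −0.07 to 0.16 in the time course, −0.06 to 0.09 for GSK-126 and 0.03 for each pair of GSK-J4. These values cannot show whether same-numbered cultures came from the same pooled cerebella, and the main fits did not pair them. With the replicate block 18 passed between DIV7 and DIV1 (44 with all deposited peaks), 0 under GSK-126 (591 with all deposited peaks; limma gave 71 positive and 93 negative changes with an unadjusted p under 0.05 on lists of equal length) and 0 of the members in any comparison, and the Grin2c difference between DIV7 and DIV1 stayed at 1.89 points (adjusted p = 0.683). Without read counts, an uncovered window cannot be told from one below the caller's threshold.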
